A study of Mus musculus with 4 samples.

Results

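The type II hair shaft keratins examined here were Krt81, Krt82, Krt83, Krt84, Krt85 and Krt86, 6 genes taken by symbol from the 17721 genes of a deposited RNA-seq table. Back skin was compared between 2 LDB2-/- libraries and 2 wild type libraries, all from C57BL/6 mice at postnatal day 63. Before RNA extraction, dispase was used to free the epidermal sheet. Ldb2, the deleted gene, encodes an adaptor that binds LIM domain transcription factors. It had 0 and 0 counts in LDB2-/- libraries against 0 and 8 counts in wild type libraries, so its own reads could not check the genotype labels. The labels do not say whether the libraries of a genotype came from separate animals, so p-values measure the spread between these libraries, which may be technical.

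Keratins build intermediate filaments as obligate pairs of an acidic type I and a basic type II chain. Hair keratins are a cysteine-rich branch that is made by the keratinizing cells of the growing follicle, where they form the cortex and cuticle of the shaft together with the keratin-associated proteins. In human follicles KRT85 appears early, in the matrix and lower cortex, KRT81, KRT83 and KRT86 follow in the cortex, and KRT82 belongs to the cuticle. Human KRT84 is known mainly from the filiform papillae of the tongue. Human KRT81, KRT83 and KRT86 can be mutated in monilethrix, a beaded hair disorder.

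RefSeq positions were used for 5 of these genes, on the GRCm38.p6 assembly, the same coordinates as mm10, the build of the submitters' processing notes. All 5 lie on chromosome 15, at 101459061 to 101463765 (Krt81), 101473478 to 101479983 (Krt86), 101485130 to 101491512 (Krt83), 101525026 to 101532820 (Krt84) and 101541216 to 101550659 (Krt82). Krt86 is read from the plus strand and the other 4 from the minus strand, and none of the 5 overlaps another. RefSeq's promoter windows, 250 bases before to 50 after the start of the gene, matched 2 of the 6 members. They are shown so that the sequence before a gene can be seen beside its values for the members with an entry, Krt82 and Krt84. The windows are chr15:101550610-101550909 (Krt82) and chr15:101532771-101533070 (Krt84), both on the minus strand of GRCm38.p6, and the capitals mark the longest run of bases that they have in common.
Krt82: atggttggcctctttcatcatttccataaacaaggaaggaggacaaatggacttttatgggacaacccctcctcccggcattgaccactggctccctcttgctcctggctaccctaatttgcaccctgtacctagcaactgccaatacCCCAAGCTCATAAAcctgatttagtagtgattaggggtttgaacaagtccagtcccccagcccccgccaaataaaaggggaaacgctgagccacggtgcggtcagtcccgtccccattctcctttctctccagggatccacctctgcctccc
Krt84: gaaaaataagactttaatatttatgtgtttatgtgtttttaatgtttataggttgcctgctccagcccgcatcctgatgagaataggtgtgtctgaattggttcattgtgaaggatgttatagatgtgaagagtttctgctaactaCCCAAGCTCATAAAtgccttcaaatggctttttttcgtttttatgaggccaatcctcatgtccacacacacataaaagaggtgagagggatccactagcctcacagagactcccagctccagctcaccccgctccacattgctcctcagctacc
The shared run, CCCAAGCTCATAAA, has 14 bases and begins 102 bases before the start in Krt82 and 104 bases before it in Krt84. On either strand it was found in 2 of 32851 promoter windows (0.00609%), those of Krt82 and Krt84. The run was picked from these 2 windows, so its presence in both was fixed in advance. Its end reads TTTATGAG on the other strand, which matches the consensus reported for human HOXC13, a homeodomain factor of hair keratin genes (TTTATN or TTAATN, then A or G at the next 2 bases). That consensus matched on either strand in 18.9% of all windows and lay at 3 places in each of these 2 windows. The letters ATAAAA stood on the coding strand 32 bases before the start in Krt82 and 33 bases before it in Krt84. On either strand 18.5% of windows held them. The letters CTTTGAA and CTTTGTT, forms of the LEF1 site, were found on neither strand of these 2 windows, against 5.14% and 5.85% of all windows. The letters TATAAA were found in the Krt84 window alone, on the strand opposite to the gene, against 13.6% of all windows. These searches overlap in part with that for the HOXC13 consensus. A match describes the letters and is not evidence that a factor binds there.

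Krt81, Krt83 and Krt86 share sequence, which bears on how finely their values can be read. In GENCODE's protein coding transcripts, 43.5% of the runs of 50 bases in Krt81, 43.3% of those in Krt86 and 23.2% of those in Krt83 occur also in another of Krt81 to Krt84, Krt86 or Krt87. For runs of 100 bases the shares were 29.0%, 24.6% and 5.43%. Krt81 and Krt86 were the closest pair, with 38.0% of the 50-base runs of Krt81 also in Krt86. Krt82 and Krt84 had 0 such runs in common with any of them. Krt85 was not analysed here for shared sequence. How the authors' counting divided shared reads is not given in the sources used here. Single values of Krt81, Krt83 and Krt86 are therefore less certain than their sum. Krt87 lies outside that sum, so the sum may still depend on reads shared with it. Krt87 held 14.7% of the 50-base runs of Krt81, 11.9% of those of Krt83 and 13.5% of those of Krt86.

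Every member was far higher in LDB2-/- skin than in wild type skin. Summed over the 6 genes, FPKM (the authors' deposited level, in fragments per length of transcript and size of library) was 4943 and 5246 in LDB2-/- libraries, against 10.6 and 80.2 in wild type libraries 1 and 2. The lowest LDB2-/- sum was 61.6 times the highest wild type sum. The mean log2 sum was 12.31 in LDB2-/- and 4.87 in wild type, a difference of 7.45. The sum depends less than single values on how shared reads were divided among the members. Of all counts, the 6 genes took 0.928% (exact 95% binomial interval 0.925 to 0.930%) in LDB2-/- library 1 and 0.988% (0.986 to 0.990%) in LDB2-/- library 2. They took 0.00221% (0.0021 to 0.00233%) in wild type library 1 and 0.015% (0.0147 to 0.0154%) in wild type library 2, and these intervals cover counting error only. In whole tissue RNA, more cells of a type and more RNA per cell cannot be told apart.

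**Figure D1:**
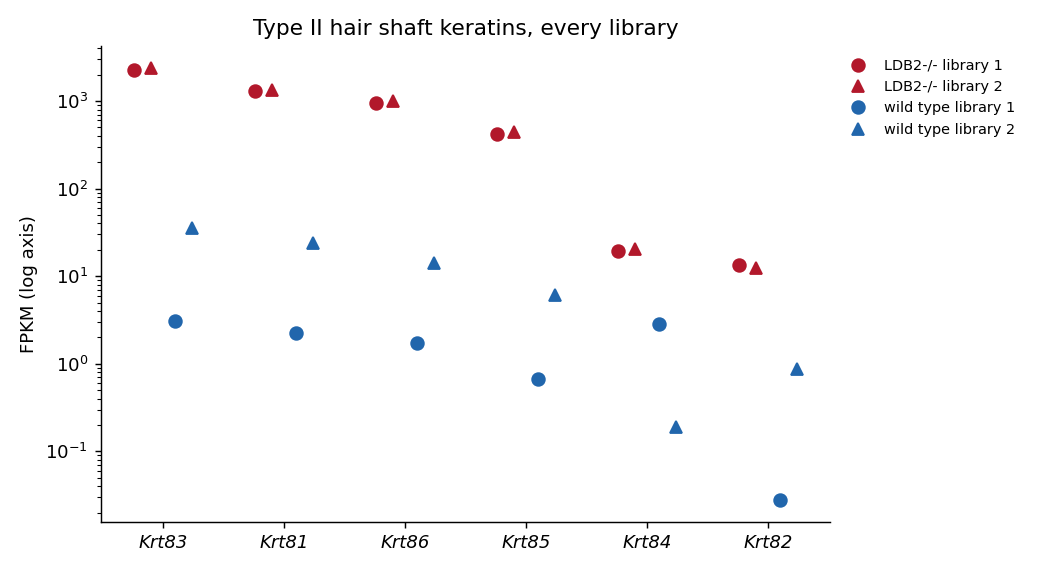
FPKM of each gene (log axis) in every library, with LDB2-/- in red to the left of wild type in blue, circles for library 1 and triangles for library 2. All 12 LDB2-/- points lie above the wild type points of the same gene, and the wild type triangles lie above the circles except for Krt84.

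Krt83, a cortex keratin in human hair, was the most abundant member, at 2246 and 2413 FPKM in LDB2-/- libraries against 3.04 and 35.3 FPKM in wild type libraries 1 and 2. It ranked 27 and 33 among all genes by FPKM in LDB2-/- and 9923 and 2375 in wild type. Its counts were 216747 and 295629 in LDB2-/-, against 366 and 3622 in wild type. The groups did not overlap, and the fold change was 153 (log2 7.26, SE 1.24, adjusted p = 0.00461, edgeR quasi-likelihood test with Benjamini-Hochberg adjustment over 12400 tested genes).

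Krt81 followed, at 1299 and 1352 FPKM in LDB2-/- against 2.27 and 23.7 FPKM in wild type libraries 1 and 2. Its log2 fold change was 7.01 (SE 1.18, adjusted p = 0.00432, edgeR). Krt86, its closest relative by shared runs, stood at 939 and 1001 FPKM in LDB2-/- against 1.71 and 14.0 FPKM in wild type. Its log2 fold change was 7.28 (SE 1.08, adjusted p = 0.00277, edgeR). For both genes the LDB2-/- libraries lay close together, and wild type library 2 was well above library 1 but far below LDB2-/-.

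Krt85, the early member in human follicles, was at 426 and 447 FPKM in LDB2-/- against 0.678 and 6.15 FPKM in wild type. It had 47378 and 63235 counts in LDB2-/- and 94 and 727 counts in wild type. Its log2 fold change, 7.34 (SE 1.10, adjusted p = 0.00284, edgeR), lay within 1 SE of those of Krt81, Krt83 and Krt86.

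Krt82, a cuticle keratin in human hair, was lower in every library than these 4. It stood at 13.3 and 12.3 FPKM in LDB2-/- against 0.0278 and 0.875 FPKM in wild type, from 1532 and 1800 counts against 4 and 107 counts. The log2 fold change was 5.19 (SE 1.10, adjusted p = 0.00979, edgeR). Krt82 was under 1 FPKM in both wild type libraries and so entered the test only through its LDB2-/- level. The test took genes with 1 FPKM or more in at least 2 libraries. Krt85 (0.678 FPKM in wild type library 1) and Krt84 (0.189 FPKM in wild type library 2) therefore also needed the LDB2-/- libraries to enter it.

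Krt84 stood apart. It was at 19.2 and 20.6 FPKM in LDB2-/- against 2.88 and 0.189 FPKM in wild type libraries 1 and 2, from 2705 and 3689 counts against 507 and 29 counts. The groups did not overlap, but the lowest LDB2-/- value was 6.64 times the highest wild type value, against 14.1 times for Krt82 and 54.9 to 69.3 times for the other 4. Its log2 fold change was 3.99 (SE 1.04, adjusted p = 0.0203, edgeR). It was also the member whose wild type libraries ran the other way, with library 1 at 15.2 times library 2 in FPKM.

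All 6 members were called higher and 0 lower, where 28.4% of all tested genes were called higher and 28.8% lower. Krt82, Krt84 and Krt85 entered the test only with the LDB2-/- libraries. Among tested genes, 27.6% had both LDB2-/- libraries above both wild type libraries in FPKM, as all 6 members did. The median log2 fold change was 7.13 over the members and -0.01 over all tested genes. A call with a fold change of 16 or more was made for 2.75% of tested genes and for 5 of the members, with Krt84 just short of it at 15.9-fold. In the authors' deposited table, fold changes of LDB2-/- over wild type were 128 for Krt81, 35.7 for Krt82, 153 for Krt83, 15.8 for Krt84, 161 for Krt85 and 155 for Krt86. The adjusted p-values of the authors' deposited table ran from 7.1e-10 (Krt86) to 0.0202 (Krt84).

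The calls rested on how the spread between libraries was modelled. With edgeR's robust variance, which lets genes with an outlying spread keep more of it, 0 of 6 members passed, with adjusted p from 0.0678 (Krt86) to 0.174 (Krt84), and 2 had an unadjusted p under 0.05. With that setting 28.6% of all tested genes were still called higher. DESeq2 called 6 of 6 members, and so did limma on log2(FPKM + 1). Leaving out wild type library 2 raised the log2 fold changes to between 9.09 (Krt82) and 9.88 (Krt83) for 5 members, and gave 3.09 for Krt84. Leaving out wild type library 1 gave 4.20 for Krt82, 6.14 to 6.49 for Krt81, Krt83, Krt85 and Krt86, and 7.01 for Krt84. In these fits the lone wild type library is assumed to vary like the LDB2-/- pair.

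**Figure D2:**
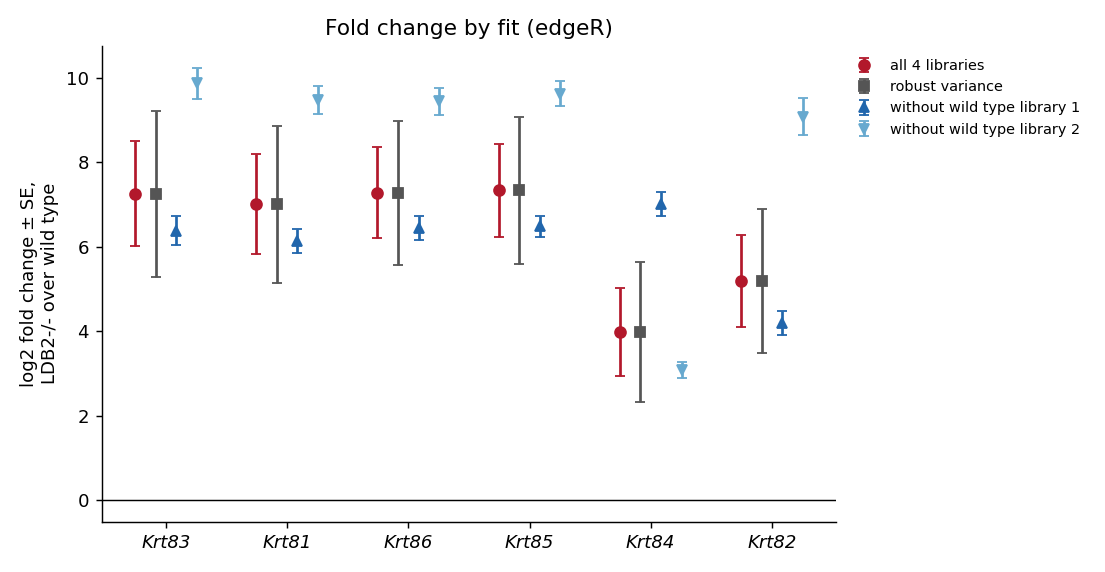
Log2 fold change of LDB2-/- over wild type with its standard error for each gene, from edgeR with all 4 libraries, with robust variance, and without either wild type library. All estimates lie above 0. Without wild type library 1, Krt84 moves up to 7.01 while the other 5 move down, and without wild type library 2 it moves down to 3.09 while they move up.

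The LDB2-/- libraries differed little from each other. The coefficient of variation of FPKM was between 2.82% (Krt81) and 5.47% (Krt82) in LDB2-/- and between 111% (Krt86) and 133% (Krt82) in wild type, with n = 2 each. Wild type library 2 was 10.4 times library 1 for Krt81, 31.5 times for Krt82, 11.6 times for Krt83, 9.06 times for Krt85 and 8.16 times for Krt86. After TMM scaling, 5 members were at least 4-fold higher in wild type library 2 than in library 1, as were 0.637% of all tested genes (79 genes). In the other direction a 4-fold difference was found for Krt84 and for 0.113% of tested genes (14 genes). The gap was not particular to the members, as most type I hair shaft keratins showed it too. Wild type library 2 was 13.6 times library 1 in FPKM for Krt33a, 10.7 times for Krt33b and 10.3 times for Krt31. It was 7.88 times library 1 for Krt34, 4.22 times for Krt35, 2.35 times for Krt36 and 0.912 times for Krt32.

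**Figure D3:**
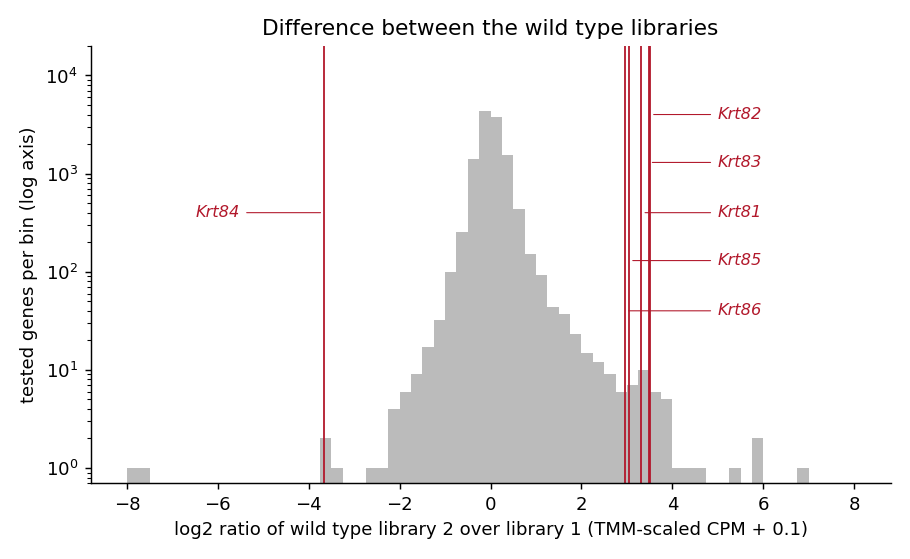
Number of tested genes (log axis) by the log2 ratio of wild type library 2 over library 1 on TMM-scaled CPM + 0.1, with red lines at the 6 keratins. Most of the 12400 genes lie near 0, 5 keratins lie between 2.96 and 3.51, and Krt84 lies at -3.66. The few genes beyond -8 or 8 are not drawn.

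Most marker lists of other cells differed between the genotypes, some higher and some lower in LDB2-/-. Their sums differed less between the wild type libraries than the keratins did. Library 2 was 4 times library 1 for inner root sheath markers and 0.65 to 1.72 times for the other lists. The inner root sheath markers Krt27, Krt71, Krt73 and Tchh summed to 28020 and 29840 FPKM in LDB2-/- against 47.9 and 192 FPKM in wild type libraries 1 and 2, and all 4 were called higher. The 7 melanocyte markers, all called higher, summed to 598 and 680 FPKM in LDB2-/- and to 15.4 and 26.4 FPKM in wild type. Tyr and Slc45a2 among them were tested only through their LDB2-/- level. Mlana and Tyrp1, under 1 FPKM in wild type library 1, also entered the test only with the LDB2-/- libraries. The 4 markers of interfollicular keratinocytes (Krt5, Krt14, Krt1 and Krt10), of which Krt5 and Krt14 are made in the outer root sheath too, summed to 5671 and 5307 FPKM in LDB2-/- and to 21153 and 18794 FPKM in wild type, and all 4 were called lower. The 4 sebaceous gland markers summed to 398 and 370 FPKM in LDB2-/- and to 1508 and 1946 FPKM in wild type. Proliferation markers stayed close, at 75.0 and 71.8 FPKM in LDB2-/- against 71.6 and 79.0 FPKM in wild type, with 2 of 5 called higher. The 9 dermal papilla and fibroblast markers summed to 51.3 and 57.6 FPKM in LDB2-/- and to 18.0 and 11.7 FPKM in wild type, with Sox2 at 0 in LDB2-/-. Of the 9, 4 were tested, and all 4 were called higher. Dcn alone was at 30.4 and 28.7 FPKM in LDB2-/- against 3.04 and 3.54 FPKM in wild type. Col1a1, Col1a2 and Col3a1 rose by 1.33 to 1.51 on the log2 scale. The 4 skeletal muscle markers summed to 26.9 and 21.3 FPKM in LDB2-/- and to 0.654 and 0.483 FPKM in wild type. The part of these cells in the keratin levels was not tested.

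Within LDB2-/- skin the members formed a fixed order by FPKM, a level per transcript length. Means were 2330 ± 118 for Krt83, 1325 ± 37.4 for Krt81, 970 ± 43.5 for Krt86, 436 ± 15.4 for Krt85, 19.9 ± 1.01 for Krt84 and 12.8 ± 0.701 for Krt82 (SD, n = 2). Each gene was above the next in both libraries, and no neighbours overlapped. In wild type the means were 19.2 ± 22.8 for Krt83, 13.0 ± 15.1 for Krt81 and 7.85 ± 8.68 for Krt86 (SD, n = 2). They were 3.41 ± 3.87 for Krt85, 1.54 ± 1.91 for Krt84 and 0.451 ± 0.599 for Krt82. These SDs hold the gap between the wild type libraries and do not bear on the order inside a library. Inside each wild type library Krt83, Krt81, Krt86 and Krt85 kept the order that they had in LDB2-/- skin. Inside wild type library 2 Krt82 was above Krt84. Inside wild type library 1 Krt84 came between Krt83 and Krt81.

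The make-up of the keratin RNA was nearly the same in 3 of 4 libraries. Krt83 made 45.4% and 46.0% of the summed FPKM of the 6 genes in LDB2-/- libraries, against 28.7% and 44.0% in wild type libraries 1 and 2. Krt84 made 0.388% and 0.392% in LDB2-/-, against 27.2% and 0.236% in wild type. Among Krt83, Krt81, Krt86 and Krt85 alone, Krt83 made 45.7% and 46.3% in LDB2-/- and 39.5% and 44.6% in wild type. Krt85 then made 8.67% and 8.58% in LDB2-/- and 8.80% and 7.77% in wild type. The proportions of these 4 genes differed by several percentage points between libraries whose totals of them were 4910 and 5213 FPKM in LDB2-/- and 7.71 and 79.1 FPKM in wild type. Krt82 as a share of Krt83 was 0.592% and 0.510% in LDB2-/- against 0.914% and 2.48% in wild type.

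**Figure D4:**
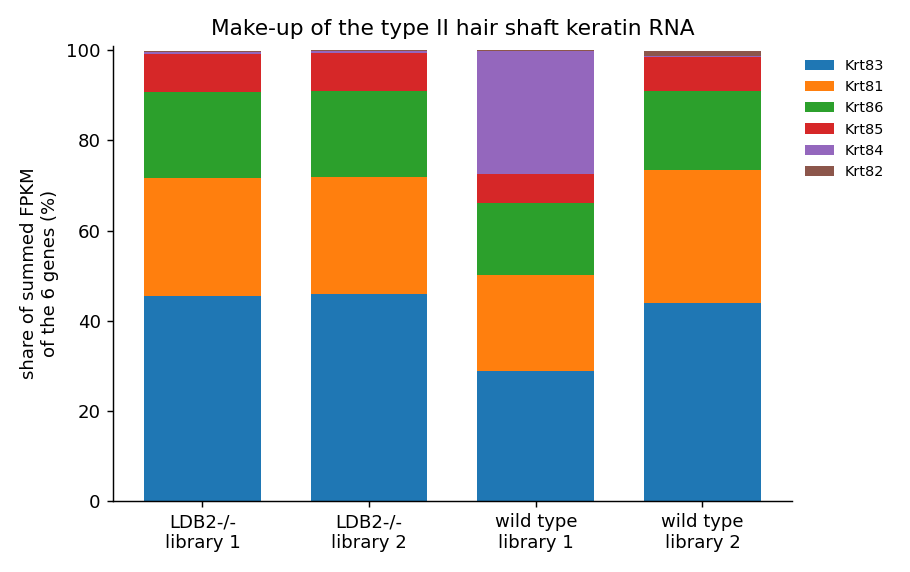
Share of each gene in the summed FPKM of the 6 genes (%), with the LDB2-/- libraries left of the wild type libraries. Krt84 fills 27.2% of the bar of wild type library 1 and under 1% of each of the other 3 bars.

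The type I partners moved with them. All 9 tested members of the type I hair shaft keratin list (Krt31, Krt32, Krt33a, Krt33b, Krt34, Krt35, Krt36, Krt39 and Krt40) were called higher. Their median log2 fold change was 6.86, and 3 of them were under 1 FPKM in both wild type libraries. With edgeR's robust variance 5 of the 9 passed, Krt32, Krt35, Krt36, Krt39 and Krt40. Krt31, Krt33a, Krt33b and Krt34 did not, with adjusted p from 0.063 (Krt34) to 0.1 (Krt33a) in that fit. Krt34 and Krt35 led the list with log2 fold changes of 7.49 (SE 1.07, adjusted p = 0.00242) and 7.30 (SE 0.78, adjusted p = 0.000906), followed by Krt31 (7.06) and Krt33a (6.92). Krt34 was at 907 and 985 FPKM in LDB2-/- against 1.49 and 11.8 FPKM in wild type. Krt32, which in human hair is a cuticle keratin like KRT82, was the least changed at 2.71 (SE 0.18, adjusted p = 0.000228), and its wild type libraries, at 5.13 and 4.68 FPKM, were alike, against 23.2 and 28.0 FPKM in LDB2-/-. The ratio of summed type II to summed type I FPKM was 0.898 and 0.887 in LDB2-/- and 0.692 and 0.783 in wild type. Krt87, a neighbouring type II keratin that shares runs with Krt81, Krt83 and Krt86, was chosen after its values were seen. With Krt87 added to type II, the ratio was 1.09 and 1.06 in LDB2-/- and 0.876 and 1.04 in wild type. Krt87 itself was at 1052 and 1015 FPKM in LDB2-/- against 2.82 and 26.8 FPKM in wild type (log2 fold change 6.46, SE 1.11, adjusted p = 0.00468, and adjusted p = 0.0878 with robust variance).

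The genes whose pattern over the 4 libraries was most like each member were found by the Euclidean distance between centred log2 CPM profiles, a description in which the genotype difference dominates. Krt83 lay closest to the keratin-associated gene Krtap11-1 (distance 0.04), the orphan receptor gene Gprc5d (0.08) and Krt33a (0.29). Krt81 lay closest to Krt31 (0.06), Krt33b (0.14) and Krtap7-1 (0.21). Krt86 lay closest to Krtap26-1 (0.11), Krtap7-1 (0.13) and the synaptotagmin gene Syt7 (0.15). Krt85 lay closest to the antisense RNA Dlx1as (0.10), Krt34 (0.16) and Syt7 (0.17). Krt82 lay closest to Slc24a4 (0.36), Scrn1 (0.68) and Tnni1 (0.73), and at 1.60 from its nearest fellow member, Krt81. For Krt84 the nearest genes were Pf4 (0.48), the antisense RNA Dio3os (0.52) and Klk14 (0.56), all 3 listed at 0 in wild type library 2 and under 3 FPKM throughout. Krt84 lay between 5.67 and 6.16 from the other 5 members, whose distances among themselves ran from 0.15 to 1.88. Dlx1as, Slc24a4 and Scrn1 were listed at 0 in wild type library 1, so their distances, like those of the genes nearest to Krt84, depend on the prior count. Reads of the antisense RNAs cannot be told from those of their partner genes, since the use of strand in counting is not stated.

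Type II keratins outside the hair shaft did not share one direction. All 4 inner root sheath members rose, with log2 fold changes of 9.57 (Krt72), 8.35 (Krt71), 8.13 (Krt73) and 6.42 (Krt74), adjusted p from 0.000145 to 0.00148 by edgeR and a median of 8.24. Krt74 was under 1 FPKM in both wild type libraries and Krt72 in wild type library 1. Both genes entered the test only with the LDB2-/- libraries. Among 12 tested of 15 other type II keratins, 5 rose and 6 fell, and Krt2, Krt4 and Krt76 were too low to test. Krt8, among the 5, rose by 3.52 on the log2 scale. It was under 1 FPKM in wild type library 2 and entered the test only with the LDB2-/- libraries. Krt75, a companion layer keratin, rose by 5.38 on the log2 scale (adjusted p = 6.49e-05), to 211 and 198 FPKM in LDB2-/- against 6.22 and 5.97 FPKM in wild type, and Krt90, tested only through its LDB2-/- level, rose by 4.88. The suprabasal keratin gene Krt77 fell by 3.08 on the log2 scale, to 379 and 334 FPKM in LDB2-/- against 3717 and 3784 FPKM in wild type, and Krt78 fell by 2.99. Krt6b did not pass (0.28, adjusted p = 0.306, and -0.03 with libraries scaled by their total alone). The median of this list was -0.13, or -0.45 with the library total alone and -0.57 with no filter on low values.

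Of 15 regulators of the hair matrix and cortex, 11 rose and 0 fell, and the median log2 fold change was 1.80. Msx1 and Trps1, both among the 11, were under 1 FPKM in both wild type libraries and entered the test only through LDB2-/-, and Trps1 was the median gene. Hoxc13, whose loss leaves mice without proper hair shafts, was at 72.3 and 78.8 FPKM in LDB2-/- against 4.66 and 3.69 FPKM in wild type (log2 fold change 4.50, SE 0.18, adjusted p = 8.65e-05). Its wild type libraries differed little and ran opposite to those of 5 of the 6 keratins. The nude gene Foxn1, which is needed for hair shaft keratinization, had a log2 fold change of 3.28 (SE 0.14), at 56.3 and 56.3 FPKM in LDB2-/- against 6.61 and 7.91 FPKM in wild type. The largest were those of Msx2 (6.05), Lef1 (6.02), Msx1 (5.25) and Dlx3 (5.19). Lef1, the nuclear partner of beta-catenin in the hair cortex, was at 33.6 and 33.2 FPKM in LDB2-/- against 0.272 and 1.17 FPKM in wild type. Lef1 thus also entered the test only with the LDB2-/- libraries. Ctnnb1, the beta-catenin gene, rose by 0.57 (adjusted p = 0.02), a call lost with libraries scaled by their total alone (0.26, adjusted p = 0.192). Gata3 (0.32), Runx1 (0.82), Vdr (0.07) and Bmpr1a (-0.10) did not pass, and Vdr was at -0.25 with the library total.

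Genes that assemble or anchor the shaft mostly rose as well, 10 of 13 with 1 lower and a median of 4.59. Dsg4 and Crisp1, among the 10, were under 1 FPKM in both wild type libraries and were tested only through their LDB2-/- level. Padi3 and Lrrc15, under 1 FPKM in wild type library 1, also entered the test only with the LDB2-/- libraries. Padi3, which citrullinates hair proteins, rose by 8.35 (SE 0.93, adjusted p = 0.00104), Tchh, trichohyalin, by 7.84 and S100a3, a calcium-binding protein of the hair cuticle, by 7.24. Crisp1 had 345 and 450 counts in LDB2-/- against 0 and 0 counts in wild type, which is at least 336-fold higher against 3 counts over the wild type group. Pkp1, a desmosome plaque gene, fell by 0.56 (adjusted p = 0.0263), Dsp (-0.18) and Jup (0.38) did not pass, and Dsc2 (0.63) was no longer called with the library total (0.31, adjusted p = 0.177).

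**Figure D5:**
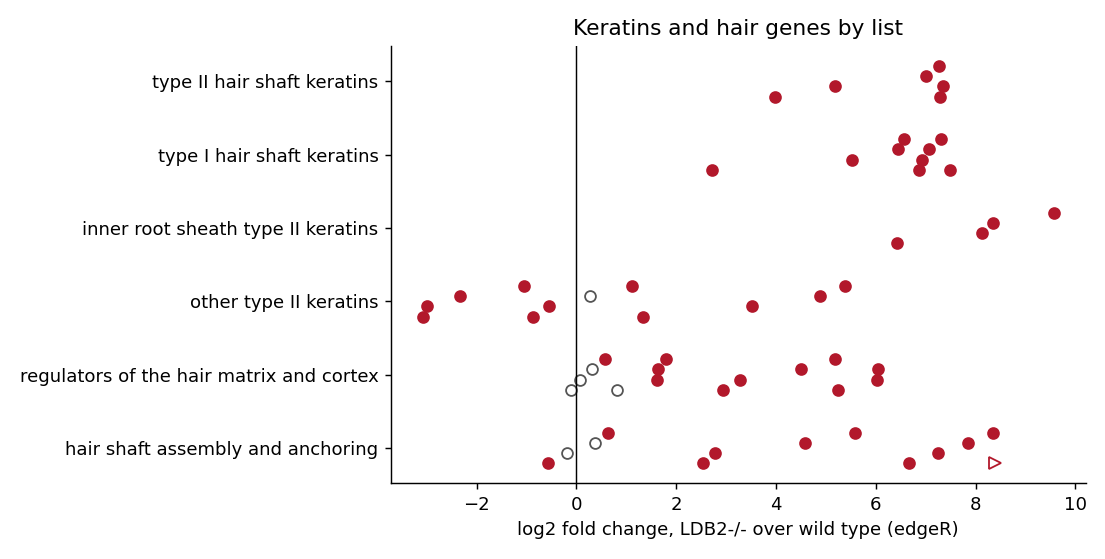
Log2 fold change of LDB2-/- over wild type (edgeR) for the tested genes of each list, with filled points for an adjusted p under 0.05, open points otherwise, and an arrowhead for the lower bound of Crisp1. Both hair shaft lists and the inner root sheath list lie wholly to the right of 0, while the other type II keratins lie on both sides.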

How the data were processed

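RNA-seq was made from dispase-treated back skin in 2 LDB2-/- and 2 wild type libraries with the Illumina TruSeq RNA kit, per the labels' protocols. Per the submitters' processing notes, HISAT2 2.1.0, StringTie 1.3.4d and bcl2fastq 1.8.4 were used with build mm10, and their settings are not given in the sources used here. The authors deposited whole-number read counts per gene, not normalized, FPKM, and log2 values normalized between libraries by a method not stated, per the file headers. They also deposited their own comparison, per the file headers: a signed fold change (a score, negative where LDB2-/- is lower), the p-value with its adjusted form, and a mean scaled signal. Total counts were 54095522 and 68436842 in LDB2-/- and 67307536 and 57517162 in wild type.

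A gene entered the test if at least 2 libraries had 1 FPKM or more. The counts of these 12400 genes were compared two-sided with edgeR 4.0.16 (quasi-likelihood, TMM scaling, R 4.3.3), adjusted by Benjamini-Hochberg over all of them, with a threshold of 0.05. The standard error is that implied by the F statistic. Run on simulated counts, the test missed most small changes and made more false calls than its threshold is meant to allow. In the simulation 200 of 12400 genes were changed, by 1.5-fold to 4-fold, far fewer than the 7097 called in these data. The share of false calls in the simulation therefore need not hold here. Alternatives used limma 3.58.1, DESeq2 1.42.0, other scalings, filters and pseudocounts, a replicate block, libraries left out, and members summed. Tables and figures were made with Python 3.11.15 and pandas 2.3.3. The members and the gene lists were chosen with earlier results of these data known. From each list up to 4 genes with the largest change were named, and others named were chosen after their values were seen. With 2 libraries per genotype the exact permutation test planned for the summed level cannot give a p below 0.333, so no p is given for it. Similar genes were ranked among named genes with a prior count of 1.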

Additional observations from a re-analysis of the deposited data

How the results depend on the processing

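The median log2 fold change of the 6 members, 7.13, ranged from 6.42 to 9.47 with each library left out in turn and was 4.32 with limma on the authors' normalized log2 values, the cause of which was not tested. The number of members called higher, 6, was 6 in the alternatives run except robust variance, where it was 0. The direction of no member changed. Over 17 or 18 alternatives per gene, log2 fold changes ran from 2.70 to 7.01 for Krt84, from 3.03 to 9.09 for Krt82 and from 4.27 to 9.88 for the other 4. The difference in summed FPKM, 7.45, became 0.15 for the share in the FPKM of hair shaft keratins of both types, a quantity whose denominator rises with the members. It ran from 5.99 to 8.91 with libraries left out.

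Krt81, Krt83 and Krt86 summed into 1 feature had a log2 fold change of 7.19 (adjusted p = 0.00414, edgeR), and all 6 members summed had 7.12 (adjusted p = 0.00232, edgeR). The count of genes called, 7097, stayed within 1.5 times in all alternatives. With libraries scaled by their total alone it was 7344, of which 2248 were higher and 5096 lower, against 3521 and 3576, and the median of all tested genes was -0.33 against -0.01. Of tested genes 18.1% were then called higher. The planned limma fit with a pseudocount of 1 split its calls into 2393 higher and 5350 lower.

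The replicate numbers are not stated to pair the libraries, and the deviations of same-numbered libraries were only weakly, and negatively, correlated (r = -0.154 across tested genes). With the replicate number as a block 6092 genes were called and the 6 members passed, and with crossed pairs, added after seeing the data, 7269 genes were called.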
